A study of Mus musculus with 12 samples.

Results

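The genes described here make, bind and sense retinoic acid: the retinol transporter Stra6, the binding protein Crabp1, the dehydrogenases Dhrs9, Dhrs3 and Rdh10, the retinal-oxidising enzymes Aldh1a1, Aldh1a2 and Aldh1a3, and the receptor gene Rarb. They are 9 of the 19938 genes read from 12 mouse arrays, and each had 1 probe set with a single gene symbol. Adipocyte cultures were compared, differentiated from the 3T3-L1 line, from primary embryonic fibroblasts (PMEF) or from embryonic stem (ES) cells, together with eWAT, the usual abbreviation for epididymal white adipose tissue, taken from healthy wild-type mice, with 3 biological replicates per group. The labels give no agent, time point, strain, age or sex for any group, and the culture protocols were not used here. The 3T3-L1 cells are an immortal fibroblast line, so replicates of that group share 1 line, whereas eWAT is whole tissue that also holds vessels, immune cells and stroma. The gene set was chosen by its measured values, namely the high Dhrs9 signal in 3T3-L1 adipocytes. All differences of the 9 genes that involve 3T3-L1 arrays are therefore given as a description with no test, and only the comparisons among PMEF adipocytes, ES adipocytes and eWAT were tested for them. For Dhrs9 itself the values of those groups were part of the choice too, so its test results there are only a description. In bulk RNA, fewer cells of a type and less RNA per cell cannot be told apart.

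Retinoic acid is made from vitamin A (retinol) in successive oxidations. Retinol reaches cells bound to the plasma carrier Rbp4 and can enter through Stra6; Rdh10 and other dehydrogenases oxidise it to retinal, Dhrs3 reduces retinal back to retinol, and the Aldh1a enzymes oxidise retinal irreversibly to retinoic acid. Crabp1 binds retinoic acid in the cytoplasm, Cyp26 enzymes break it down, and nuclear receptors of the RAR family, paired with RXR partners, switch target genes in response to it. Rarb is itself a classic target of that response. In fat, retinoids are known both to be stored as esters and to affect the formation of fat cells.

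The promoter windows of Dhrs9 and Rarb are shown because Dhrs9 had the widest spread between groups of the 9 genes and because Rarb carries a well-known retinoic acid response element. Windows run from 250 bases before to 50 bases after an annotated start, 5′ to 3′ on the strand of the gene, from RefSeq on GRCm38.p6; 7 of the 9 genes had at least 1 such window (13 windows in all). Capitals mark every match on either strand to the motifs spelled out after the sequences: the receptor-binding units, direct repeats of such units, and the TATA box.

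Dhrs9, chr2:69380212-69380511, plus strand: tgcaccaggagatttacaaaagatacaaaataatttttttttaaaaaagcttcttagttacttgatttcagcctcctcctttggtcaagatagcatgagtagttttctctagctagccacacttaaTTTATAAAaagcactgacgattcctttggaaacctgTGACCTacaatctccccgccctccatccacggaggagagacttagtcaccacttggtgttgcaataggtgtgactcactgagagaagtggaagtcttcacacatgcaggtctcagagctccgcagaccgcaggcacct
Rarb, chr14:16575427-16575726, minus strand: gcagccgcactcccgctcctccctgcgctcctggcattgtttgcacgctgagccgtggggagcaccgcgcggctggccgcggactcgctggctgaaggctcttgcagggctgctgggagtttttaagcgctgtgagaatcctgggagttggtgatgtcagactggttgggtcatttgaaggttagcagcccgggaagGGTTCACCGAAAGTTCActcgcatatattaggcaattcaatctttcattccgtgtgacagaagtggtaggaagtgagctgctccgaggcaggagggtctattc

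The Rarb window held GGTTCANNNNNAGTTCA, a pair of units with 5 bases between them, starting 53 bases before the annotated start (-53). That spelling was searched because it is the known element of this gene, and it was present in 2 of 32817 windows of all genes (0.00609%). The repeat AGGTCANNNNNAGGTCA was in 0.00914% of windows and in none of the 13 windows of the 9 genes. The Dhrs9 window held AGGTCA on the opposite strand from -88, a unit found in 16.3% of windows, and TATAAA on both strands from -124 and -122, found in 13.6%. The single units of the Rarb pair were in 10.4% (GGTTCA) and 14.0% (AGTTCA) of windows. A match is only a description of these letters.

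Arrays of the same group had Pearson's r of 0.992 to 0.997 with each other and 0.899 to 0.965 with arrays of other groups, computed over genes, which are no replicates. Over the 19938 genes the 3T3-L1 arrays had medians of 6.11 to 6.12, against 6.31 to 6.35 on the other arrays. Centring arrays on their medians therefore moved the median difference of 3T3-L1 from eWAT from 0.05 to 0.26. Centring on 6 reference genes moved it to -0.51, and 2 of those genes, Gusb (6.83 to 8.76) and Pgk1 (10.42 to 12.35), themselves differed widely between group means. No detection calls were used. As a guide to the low end, a value is called dim where it lies below the 95th percentile of 1194 odour and pheromone receptor genes on the same array, which was 5.04 to 5.35.

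Stra6, the membrane transporter that takes up retinol from its plasma carrier, differed little between groups. Its log2 intensities were 5.98, 5.89 and 5.93 in 3T3-L1 adipocytes, 5.93, 5.94 and 6.26 in PMEF adipocytes, 6.35, 6.32 and 6.36 in ES adipocytes, and 5.93, 6.01 and 6.07 in eWAT. The ES arrays were the highest and overlapped with no other group, while the other groups overlapped with one another. Stra6 was 0.34 ± 0.09 higher in ES adipocytes than in eWAT (log2 difference ± moderated SE, n = 3 per group; limma with Benjamini-Hochberg adjustment over all genes, adjusted p = 0.00523), and 0.30 ± 0.09 higher than in PMEF adipocytes (adjusted p = 0.014). Both calls were lost when arrays were set to the reference genes (0.09, adjusted p = 0.426, and 0.15, adjusted p = 0.185). The second was also lost without PMEF array 1 (adjusted p = 0.0561) or array 2 (adjusted p = 0.0651). PMEF adipocytes and eWAT differed by 0.04 ± 0.09 (adjusted p = 0.724).

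Crabp1, the cytoplasmic retinoic acid binding protein, was a gene of the PMEF and, less so, the ES cultures. Its values were 10.14, 10.49 and 10.16 in PMEF adipocytes, 7.99, 7.81 and 8.10 in ES adipocytes, 6.33, 6.79 and 6.32 in eWAT, and 6.32, 6.30 and 6.19 in 3T3-L1 adipocytes. The PMEF and ES arrays lay apart from each other and from the rest, whereas the lowest eWAT array was at the level of the highest 3T3-L1 array. Crabp1 rose by 3.78 ± 0.13 in PMEF adipocytes against eWAT, a 13.7-fold difference (adjusted p = 5.51e-11), and by 1.49 ± 0.13 in ES adipocytes against eWAT (2.81-fold, adjusted p = 5.8e-07). It was 2.29 ± 0.13 lower in ES than in PMEF adipocytes (adjusted p = 1.62e-08). The untested difference of 3T3-L1 adipocytes from PMEF adipocytes was -3.99 ± 0.13.

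Dhrs9, a short-chain dehydrogenase able to oxidise retinol to retinal, had the values that chose the set. In 3T3-L1 adipocytes it was at 10.35, 10.31 and 10.24, in ES adipocytes at 8.81, 8.82 and 8.70, in PMEF adipocytes at 6.64, 6.43 and 6.70, and in eWAT at 5.59, 5.28 and 5.50. No groups overlapped, and the order was 3T3-L1, ES, PMEF, eWAT. The eWAT values sat just above the dim level of their arrays (5.20 to 5.30), so the size of differences from tissue is rough. As a description, 3T3-L1 exceeded eWAT by 4.84 ± 0.09 (28.7-fold), PMEF adipocytes by 3.71 ± 0.09 and ES adipocytes by 1.52 ± 0.09. Among the other groups, Dhrs9 rose in ES adipocytes against eWAT by 3.32 ± 0.09 (9.98-fold, adjusted p = 1.3e-11). In PMEF adipocytes against eWAT it rose by 1.13 ± 0.09 (2.19-fold, adjusted p = 2.52e-07). ES adipocytes were above PMEF adipocytes by 2.19 ± 0.09 (adjusted p = 1.06e-09). Dhrs9 was high in 3T3-L1 adipocytes relative to these groups, so their Dhrs9 values were part of the choice. The adjusted p values of Dhrs9 are therefore a description and no independent support.

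**Figure D1:**
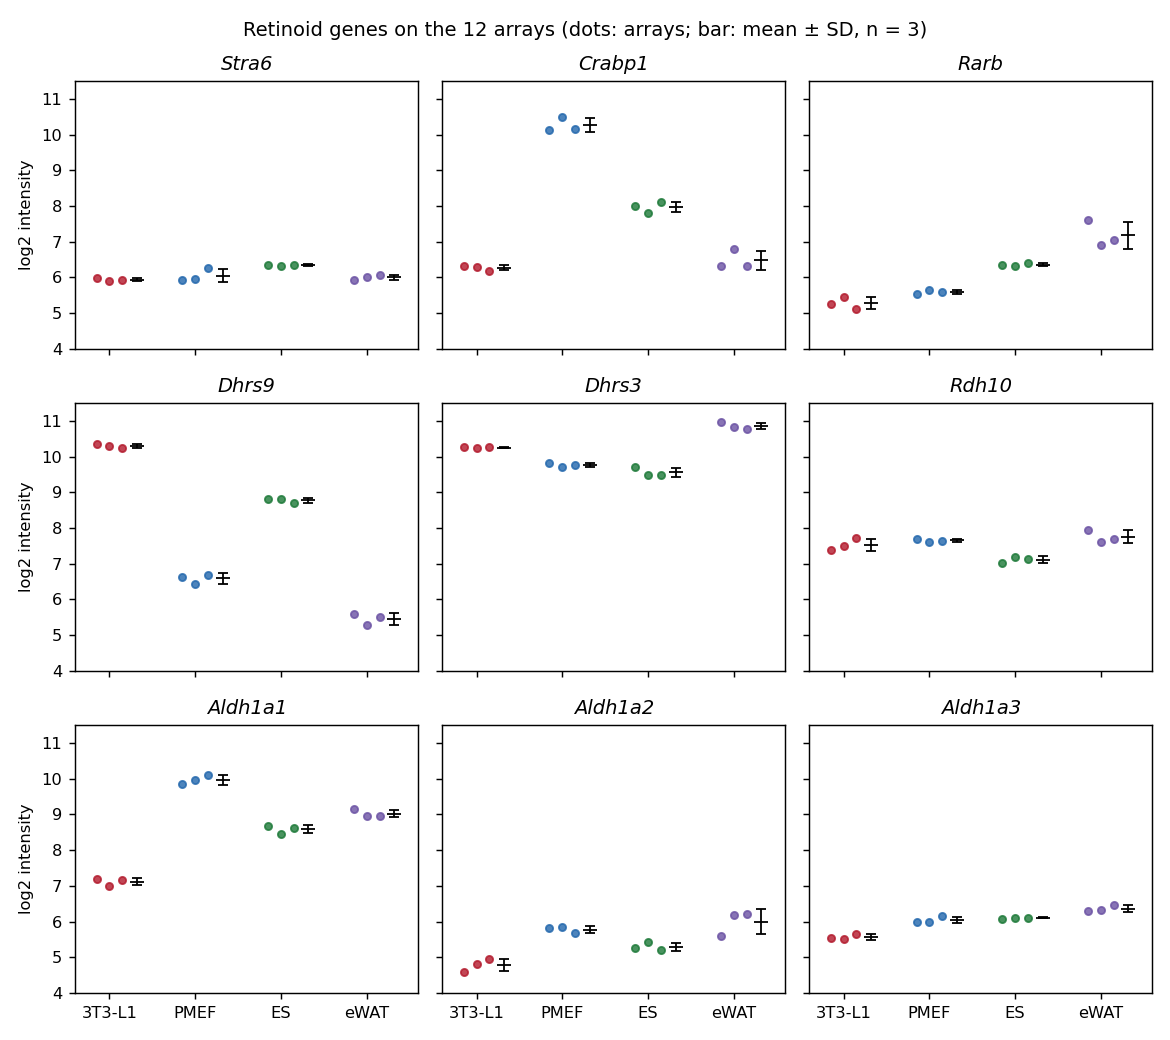
Log2 intensity (y axis) of each of the 9 retinoid genes on the 12 arrays by group (x axis); dots are arrays, and the black bar beside them is the mean ± SD of 3 arrays. Dhrs9 stepped down from 3T3-L1 (10.24 to 10.35) to eWAT (5.28 to 5.59) with no overlap, Crabp1 was highest in PMEF adipocytes (10.14 to 10.49), and Rarb was highest in eWAT (6.90 to 7.61).

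Dhrs3, which turns retinal back into retinol and is itself induced by retinoic acid in many cells, was highest in tissue. Its values were 10.96, 10.84 and 10.77 in eWAT, 10.26, 10.23 and 10.28 in 3T3-L1 adipocytes, 9.83, 9.71 and 9.77 in PMEF adipocytes, and 9.70, 9.49 and 9.49 in ES adipocytes. The groups did not overlap, though PMEF and ES arrays nearly met. Dhrs3 fell by 1.09 ± 0.08 in PMEF adipocytes (2.12-fold, adjusted p = 6.67e-08) and by 1.30 ± 0.08 in ES adipocytes (2.45-fold, adjusted p = 1.33e-08), both against eWAT. The difference of ES from PMEF adipocytes, -0.21 ± 0.08, was at the edge of the threshold (adjusted p = 0.0454). It was lost under 12 of 21 alternative settings, 9 of which left out 1 array, with adjusted p from 0.0028 to 0.153 over all 21.

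Rdh10, the retinol dehydrogenase that supplies most retinal in the embryo, was nearly level in all groups but one. It was at 7.39, 7.51 and 7.71 in 3T3-L1, 7.69, 7.62 and 7.64 in PMEF, 7.02, 7.20 and 7.13 in ES adipocytes, and 7.95, 7.61 and 7.69 in eWAT. The ES arrays lay below those of every other group, and the other groups overlapped. Rdh10 fell by 0.64 ± 0.10 in ES adipocytes against eWAT (adjusted p = 0.000131) and by 0.54 ± 0.10 against PMEF adipocytes (adjusted p = 0.000677). PMEF adipocytes were at -0.10 ± 0.10 against eWAT, which did not pass (adjusted p = 0.45).

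The genes of the Aldh1a family, which carry out the step that commits retinal to retinoic acid, did not share 1 pattern. Aldh1a1 was at 9.84, 9.96 and 10.12 in PMEF adipocytes, 9.14, 8.97 and 8.97 in eWAT, 8.69, 8.46 and 8.63 in ES adipocytes, and 7.18, 7.0 and 7.16 in 3T3-L1 adipocytes, with no overlap between groups. It rose in PMEF adipocytes against eWAT by 0.95 ± 0.09 (1.93-fold, adjusted p = 1.66e-06) and fell in ES adipocytes against eWAT by 0.43 ± 0.09 (adjusted p = 0.00151). ES adipocytes were 1.38 ± 0.09 below PMEF adipocytes (adjusted p = 7.01e-08). Set side by side with no test, 3T3-L1 adipocytes were at -1.91 ± 0.09 against eWAT and at -2.86 ± 0.09 against PMEF adipocytes, where Dhrs9 was at 4.84 and 3.71.

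Aldh1a2 is the main retinoic acid producer of early embryos and of mesothelium. It was at 5.60, 6.18 and 6.21 in eWAT, 5.81, 5.84 and 5.67 in PMEF adipocytes, 5.25, 5.42 and 5.20 in ES adipocytes, and 4.60, 4.80 and 4.95 in 3T3-L1 adipocytes, where it was dim on each array. The eWAT arrays were spread, with array 1 below the PMEF arrays and arrays 2 and 3 above them, while the ES and the 3T3-L1 arrays each lay apart and lower. The ES values sat just above the dim level of their arrays (5.04 to 5.12), so the size of differences from them is rough. Aldh1a2 fell in ES adipocytes by 0.71 ± 0.14 against eWAT (adjusted p = 0.000945) and by 0.49 ± 0.14 against PMEF adipocytes (adjusted p = 0.0143). The latter call was lost without PMEF array 2 (adjusted p = 0.0505) or ES array 3 (adjusted p = 0.0524). PMEF adipocytes were at -0.22 ± 0.14 against eWAT (adjusted p = 0.227), and at -0.42 without eWAT array 1 (adjusted p = 0.00543).

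Aldh1a3, the remaining enzyme of the family, lay low everywhere, at 6.31, 6.31 and 6.46 in eWAT, 6.08, 6.10 and 6.11 in ES adipocytes, 6.0, 6.0 and 6.15 in PMEF adipocytes, and 5.53, 5.50 and 5.65 in 3T3-L1 adipocytes. The ES and PMEF arrays overlapped with each other and with no other group. It fell against eWAT by 0.31 ± 0.07 in PMEF adipocytes (adjusted p = 0.00344) and by 0.26 ± 0.07 in ES adipocytes (adjusted p = 0.00921), and ES and PMEF adipocytes differed by 0.05 ± 0.07 (adjusted p = 0.636).

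Rarb, the receptor gene with the response element shown above, was highest in tissue and low in the fibroblast-derived cultures. Its values were 7.61, 6.90 and 7.04 in eWAT, 6.35, 6.31 and 6.40 in ES adipocytes, 5.53, 5.65 and 5.59 in PMEF adipocytes, and 5.26, 5.46 and 5.13 in 3T3-L1 adipocytes. No groups overlapped, and eWAT array 1 was well above the other eWAT arrays. Rarb fell by 1.59 ± 0.15 in PMEF adipocytes (3.02-fold, adjusted p = 7.47e-07) and by 0.83 ± 0.15 in ES adipocytes (1.78-fold, adjusted p = 0.000291), both against eWAT. The PMEF values were close to the dim level of their arrays (5.13 to 5.35), so the size of that fall is rough. ES adipocytes were 0.76 ± 0.15 above PMEF adipocytes (adjusted p = 0.000735). The untested difference of 3T3-L1 adipocytes from eWAT was -1.90 ± 0.15, with 1 of the 3T3-L1 arrays below the dim level.

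Counted over the 9 genes, 3 rose (Crabp1, Dhrs9 and Aldh1a1) and 3 fell (Dhrs3, Aldh1a3 and Rarb) in PMEF adipocytes against eWAT, where 24.7% of all genes rose and 21.6% fell. In ES adipocytes against eWAT 3 rose (Stra6, Crabp1 and Dhrs9) and 6 fell, against 28.8% and 20.9% of all genes. In ES against PMEF adipocytes 3 rose (Stra6, Dhrs9 and Rarb) and 5 fell, with Aldh1a3 not called, against 23.6% and 19% of all genes. The median log2 differences of the 9 genes were -0.10, -0.43 and -0.21 in that order, beside 0.05, 0.04 and -0.02 over all genes. The last count dropped to 5 of 9 called without PMEF array 2. Both comparisons against eWAT share the same tissue arrays. Dhrs9, whose values chose the set, is in each of these counts. The range of the 4 group means was 4.84 for Dhrs9, 3.99 for Crabp1, 2.86 for Aldh1a1 and 1.90 for Rarb, and 0.41 to 1.30 for the other 5 genes, where the median gene ranged over 0.52.

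**Figure D2:**
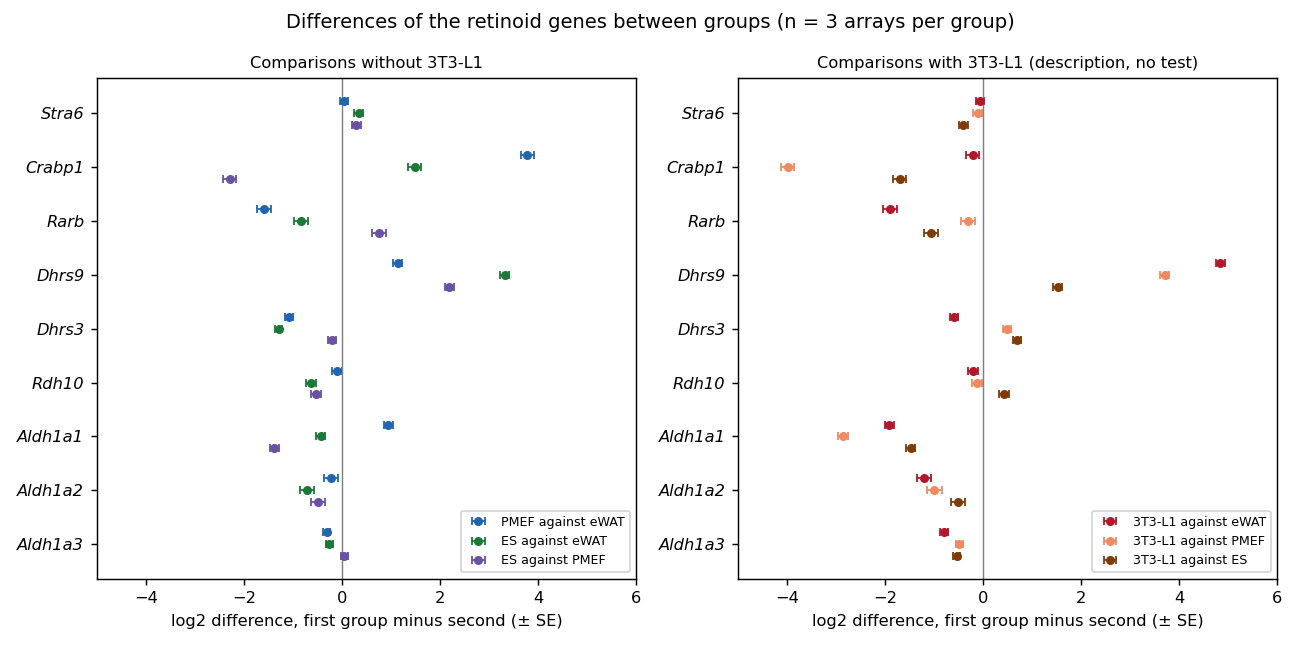
Log2 difference between groups (x axis, first group minus second, ± SE) for each of the 9 genes (y axis). Comparisons without 3T3-L1 arrays are on the left, tested for all genes but Dhrs9, whose values there are only a description. Those with 3T3-L1 arrays, which are a description, are on the right. Dhrs9 lay to the right of 0 in all comparisons with eWAT (1.13 in PMEF, 3.32 in ES and 4.84 in 3T3-L1), and Rarb lay to the left in each of them (-1.59, -0.83 and -1.90).

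The other genes of the pathway were read from 7 lists by role with 73 genes, of which 70 had a probe set with a single symbol; 9 of the 70 were dim on all 12 arrays. Over these 70 genes, 18 rose and 18 fell in PMEF adipocytes against eWAT (25.7% and 25.7%, beside 24.7% and 21.6% of all genes). In ES adipocytes against eWAT 25 rose and 17 fell (35.7% and 24.3%, beside 28.8% and 20.9%). In ES against PMEF adipocytes 27 rose and 10 fell (38.6% and 14.3%, beside 23.6% and 19%). In 3T3-L1 adipocytes 21 rose and 21 fell against eWAT (30.8% and 22.5% of all genes), 20 rose and 21 fell against PMEF adipocytes (27.8% and 22.3%), and 17 rose and 24 fell against ES adipocytes (23% and 20.4%). The direction of these counts moved with the scaling. Centred on array medians, the counts for 3T3-L1 against eWAT, PMEF and ES became 35 and 17, 31 and 13, and 31 and 19; on the reference genes they became 7 and 49, 9 and 49, and 8 and 43. On the reference genes, 14 rose and 20 fell in PMEF against eWAT, 17 and 28 in ES against eWAT, and 18 and 22 in ES against PMEF adipocytes. The share of higher genes among all genes called moved alike, from 57.8% to 77.1% (medians) or 12.2% (reference genes) for 3T3-L1 against eWAT, from 55.4% to 76.4% or 14% against PMEF, and from 52.9% to 78.3% or 16.4% against ES. On the reference genes it went from 53.4% to 38.3% for PMEF against eWAT, from 58% to 25.3% for ES against eWAT and from 55.4% to 31.4% for ES against PMEF adipocytes.

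Among carriers and uptake proteins, Rbp4 and Rbp7 differed most. Rbp4, the plasma carrier of retinol that fat also secretes, was at 12.37, 12.36 and 12.29 in ES adipocytes, 11.98, 11.85 and 11.78 in eWAT, 8.78, 8.67 and 8.73 in PMEF adipocytes, and 5.30, 4.78 and 5.0 in 3T3-L1 adipocytes. Rbp4 fell by 3.14 ± 0.11 in PMEF adipocytes against eWAT (adjusted p = 4.83e-11) and was 3.61 ± 0.11 higher in ES than in PMEF adipocytes (adjusted p = 6.1e-11). Rbp7, a cellular retinol binding protein of fat and its vessels, split the groups otherwise. It was at 8.24, 8.36 and 8.33 in 3T3-L1 adipocytes and 8.23, 8.02 and 8.66 in eWAT, but dim on each PMEF and ES array (4.42 to 5.26). It fell by 3.36 ± 0.18 in PMEF (adjusted p = 2.86e-09) and by 3.56 ± 0.18 in ES adipocytes (adjusted p = 2.02e-09) against eWAT, sizes that are rough because the PMEF and ES values are dim. 3T3-L1 adipocytes differed from eWAT by 0.00 ± 0.18 (adjusted p = 0.985), or by -0.55 on the reference genes (adjusted p = 0.0112). Crabp2, which delivers retinoic acid to receptors, rose in PMEF by 0.98 ± 0.11 (adjusted p = 4.14e-06) and in ES adipocytes by 0.84 ± 0.11 (adjusted p = 1.68e-05), and Fabp5, another carrier, by 1.36 ± 0.13 and 1.88 ± 0.13 (adjusted p = 1.3e-06 and 5.56e-08), all against eWAT. In this list of 11 measured genes, 3 rose and 2 fell in PMEF adipocytes and 6 rose and 3 fell in ES adipocytes against eWAT (3 and 4, and 4 and 3, on the reference genes). Shares over all genes were 24.7% and 21.6% in PMEF, and 28.8% and 20.9% in ES adipocytes.

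For storage and carotene cleavage, 6 of 9 genes fell and 1 rose in PMEF adipocytes against eWAT, and 4 fell and 1 rose in ES adipocytes (7 and 0 on the reference genes). Among all genes 21.6% fell and 24.7% rose in PMEF, and 20.9% fell and 28.8% rose in ES adipocytes. The carboxylesterases Ces1f and Ces1d, enzymes of the endoplasmic reticulum able to hydrolyse stored lipid esters, led the falls, at -2.72 ± 0.15 and -1.95 ± 0.10 in PMEF (adjusted p = 4.79e-09 and 1.53e-09) and at -2.77 ± 0.15 and -1.59 ± 0.10 in ES adipocytes (adjusted p = 4.76e-09 and 1.47e-08). Lrat, the enzyme that esterifies retinol in most tissues, was near or below the dim level throughout (4.58 to 5.25), and its rise of 0.44 ± 0.10 in PMEF adipocytes (adjusted p = 0.00376) rests on such values. Retsat, which saturates retinol, was highest in 3T3-L1 adipocytes, at 11.01, 10.97 and 11.06 against 9.84, 9.52 and 9.43 in eWAT (1.42 ± 0.11, adjusted p = 6.68e-08).

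The list of retinol and retinal interconversion holds the enzymes nearest in role to Dhrs9. Of its 21 genes, 10 rose and 2 fell in 3T3-L1 adipocytes against eWAT, 7 rose and none fell in PMEF adipocytes, and 7 rose and 2 fell in ES adipocytes. On the reference genes these counts became 4 and 9, 6 and 0, and 4 and 7, so that the direction turned for 3T3-L1 and ES adipocytes. With values as deposited, 30.8%, 24.7% and 28.8% of all genes rose and 22.5%, 21.6% and 20.9% fell, in the same order. Rdh16, a dehydrogenase best known in liver, was at 6.98, 6.61 and 6.96 in 3T3-L1 adipocytes and dim on every other array (3.50 to 4.42), a rise of 2.69 ± 0.16 over eWAT (adjusted p = 5.65e-09) whose size is rough because the eWAT values are dim. Adh7, an alcohol dehydrogenase with retinol among its substrates, rose over eWAT by 2.42 ± 0.14 in 3T3-L1 (adjusted p = 4.01e-09) and by 1.61 ± 0.14 in PMEF adipocytes (adjusted p = 3.62e-07). Adh1, the broad alcohol dehydrogenase, ran the other way in 3T3-L1 adipocytes, with 9.10, 9.22 and 9.31 against 11.44, 11.34 and 11.37 in eWAT (-2.17 ± 0.08, adjusted p = 4.11e-11), and fell by 0.94 ± 0.08 in ES adipocytes (adjusted p = 2.96e-07). Rdh12 rose by 1.37 ± 0.11 in PMEF and 2.04 ± 0.11 in ES adipocytes (adjusted p = 1.6e-07 and 3.58e-09) from dim values in eWAT (3.95 to 3.97), so these sizes are rough too.

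**Figure D3:**
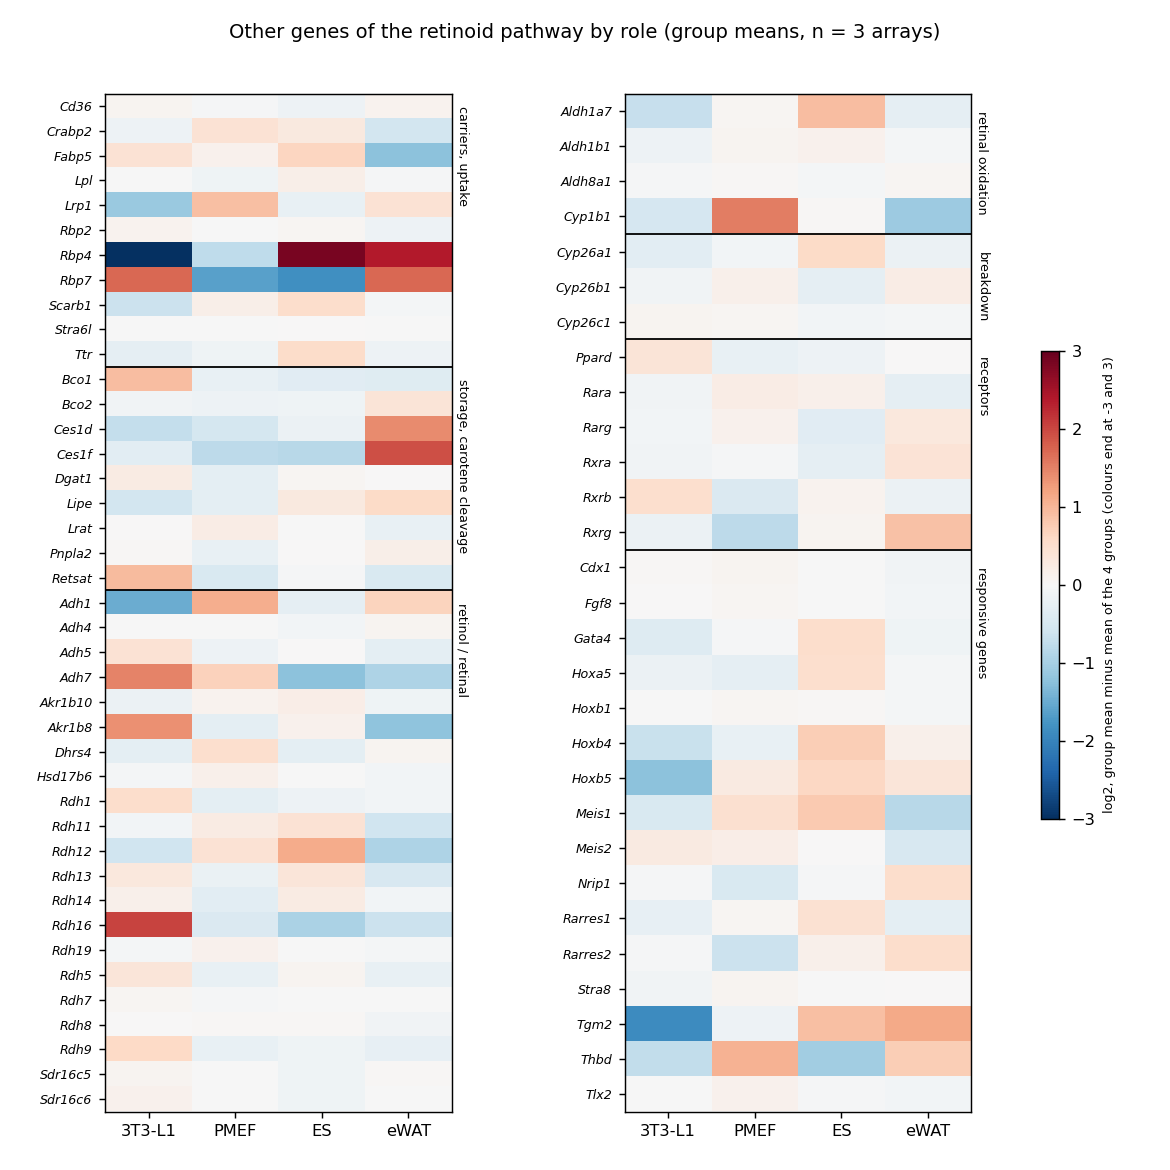
Group means of the 70 other pathway genes (rows, ordered by role, each drawn once) in the 4 groups (columns), coloured by the log2 difference from the mean of the 4 groups, with colours ending at -3 and 3. Rbp4 was lowest and Rdh16 highest in 3T3-L1 adipocytes (means of 5.02 and 6.85), and Rbp7 was low in PMEF and ES adipocytes (means of 4.94 and 4.75).

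Beside the Aldh1a genes stood Aldh1a7, a close relative of Aldh1a1, and Cyp1b1, a cytochrome that can oxidise retinol. Aldh1a7 was at 11.73, 11.68 and 11.78 in ES adipocytes and rose by 1.20 ± 0.11 over eWAT (adjusted p = 8.01e-07), where Aldh1a1 fell. As near-identical sequence can be shared by such relatives, probe sets of Aldh1a1 and Aldh1a7 may not be independent. Cyp1b1 rose by 2.62 ± 0.16 in PMEF (adjusted p = 1.14e-08) and 1.11 ± 0.16 in ES adipocytes (adjusted p = 4.68e-05). In the breakdown list, Cyp26a1 was dim on all 12 arrays (3.67 to 5.0), so its rise of 0.75 ± 0.12 in ES adipocytes against eWAT (adjusted p = 0.000113) is a difference among dim values. Cyp26b1 was at -0.06 ± 0.11 in PMEF (adjusted p = 0.67) and fell by 0.49 ± 0.11 in ES adipocytes (adjusted p = 0.00236). Cyp26c1 was at 0.12 ± 0.10 and -0.01 ± 0.10 (adjusted p = 0.344 and 0.959).

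Of the 6 receptor genes measured besides Rarb, 5 fell and 1 rose in PMEF adipocytes against eWAT, and 3 fell and 2 rose in ES adipocytes (4 and 0 on the reference genes). Beside these stood 21.6% and 24.7% of all genes in PMEF, and 20.9% and 28.8% in ES adipocytes. Rxrg, an RXR partner of muscle and fat, was at 8.84, 8.76 and 8.73 in eWAT, 8.02, 7.99 and 7.96 in ES adipocytes, 7.79, 7.77 and 7.66 in 3T3-L1 adipocytes, and 7.17, 7.01 and 7.16 in PMEF adipocytes. It fell by 1.66 ± 0.07 in PMEF (adjusted p = 3.78e-10) and by 0.79 ± 0.07 in ES adipocytes (adjusted p = 6.93e-07). Rxra fell by 0.43 ± 0.08 and 0.66 ± 0.08 in the same comparisons (adjusted p = 0.000634 and 1.3e-05), and Rarg by 0.19 ± 0.06 and 0.65 ± 0.06 (adjusted p = 0.0263 and 1.27e-06). Rara, the most broadly expressed RAR gene, rose by 0.49 ± 0.10 and 0.42 ± 0.10 (adjusted p = 0.00134 and 0.00317). On the reference genes Rara was at 0.17 in ES adipocytes (adjusted p = 0.207). The smaller Rarg fall was lost without PMEF array 2 (adjusted p = 0.0677) or eWAT array 3 (adjusted p = 0.056), and when the other groups were left out of the fit (adjusted p = 0.0845).

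Of 19 measured genes known to respond to retinoic acid, 5 rose and 5 fell in PMEF adipocytes against eWAT (24.7% and 21.6% of all genes), and 8 rose and 5 fell in ES adipocytes against eWAT (28.8% and 20.9%). In ES against PMEF adipocytes 9 rose and 2 fell (23.6% and 19%), and in 3T3-L1 adipocytes against eWAT 3 rose and 8 fell (30.8% and 22.5%). The count for ES against PMEF adipocytes was 7 and 7 on the reference genes, and that for 3T3-L1 adipocytes against eWAT was 0 and 16 on the reference genes and 7 and 6 on array medians. Tgm2, a crosslinking enzyme long used as a readout of retinoic acid, had the group order of Rarb. It was at 9.51, 9.37 and 9.43 in eWAT, 9.14, 9.33 and 9.10 in ES adipocytes, 8.15, 8.23 and 8.09 in PMEF adipocytes, and 6.42, 6.53 and 6.30 in 3T3-L1 adipocytes. Tgm2 fell against eWAT by 1.28 ± 0.08 in PMEF (adjusted p = 2.81e-08) and by 0.25 ± 0.08 in ES adipocytes (adjusted p = 0.0268), the latter lost without ES array 1 or 3 or eWAT array 1 or 3 (adjusted p of 0.0893, 0.108, 0.0829 and 0.0551). Meis1, a homeobox gene induced in embryos, rose by 1.32 ± 0.10 and 1.63 ± 0.10 (adjusted p = 1.03e-07 and 1.47e-08). Rarres2, which encodes the adipokine chemerin, fell by 1.19 ± 0.09 in PMEF adipocytes (adjusted p = 1.55e-07), and the thrombin cofactor Thbd fell by 1.76 ± 0.09 in ES adipocytes (adjusted p = 1.91e-09). Unlike Tgm2, these genes did not have the group order of Rarb. Meis1 was lowest in eWAT (mean of 6.65), Rarres2 in PMEF adipocytes (10.07) and Thbd in ES adipocytes (6.48).

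Markers of other cells moved with the groups, and their part in the differences above was not tested. Adipocyte markers were high in all groups, with list means of 10.1 to 11.7 over 9 genes. The list mean was lowest in 3T3-L1 adipocytes (10.09 to 10.13), where Lep was dim. Against eWAT, 7 of the 9 fell and none rose in 3T3-L1 adipocytes, with Cebpa at a mean of 7.57 against 10.43. In PMEF adipocytes 8 of the 9 fell, and in ES adipocytes 5 fell and 1 rose. Macrophage markers averaged 8.91 to 9.93 in eWAT and 5.03 to 5.9 in the cultures. All 10 fell in PMEF and in ES adipocytes against eWAT, and Cd163 and Mpeg1 were dim on every culture array. In 3T3-L1 adipocytes 9 fell and 1 rose against eWAT, with Cd68 at a mean of 10.42 against 9.49. Endothelial markers averaged 9.33 to 9.68 in eWAT and 5.10 to 5.53 in the cultures, all 7 fell in both, and Emcn was dim on every culture array. These lists stand beside each fall against tissue, that of Rarb, Dhrs3 and Aldh1a2 included, and equally beside each rise, that of Crabp1 included. Mesothelial markers averaged 7.15 to 7.20 in PMEF and 6.77 to 6.82 in ES adipocytes against 5.23 to 5.40 in eWAT and 5.06 to 5.18 in 3T3-L1 adipocytes, the groups in which Crabp1 was high and low; 11 of 11 rose in PMEF and 10 of 11 in ES adipocytes, with Muc16 dim on all 12 arrays. Aldh1a2, named above as an enzyme of mesothelium, fell in ES adipocytes against eWAT (-0.71) and was not called in PMEF adipocytes (-0.22). Stromal progenitor markers averaged 9.70 to 9.76 in PMEF, 9.51 to 9.78 in eWAT, 8.48 to 8.53 in ES and 6.93 to 7.01 in 3T3-L1 adipocytes. Aldh1a1 also was lower in ES and lowest in 3T3-L1 adipocytes, but its PMEF and eWAT arrays did not overlap. Of the 7 measured markers, 4 rose and 2 fell in PMEF adipocytes against eWAT, and 6 fell in ES adipocytes. Dpp4 and Pi16 were lower in PMEF adipocytes (means of 6.27 and 5.75) than in eWAT (7.82 and 7.98). Neural markers averaged 5.79 to 6.20 in ES adipocytes and 4.71 to 5.30 elsewhere. In ES adipocytes against eWAT 7 of 8 rose, with Tubb3 dim on every array. The remaining gene, Nes, fell, with a mean of 5.30 against 6.95 in eWAT. Dendritic cell markers averaged 6.20 to 6.55 in eWAT and 4.96 to 5.27 in the cultures, where Itgax, Flt3, Cd209a and Xcr1 were dim. Against eWAT, all 6 fell in 3T3-L1 and in PMEF adipocytes, and 5 fell and 1 rose in ES adipocytes. The gene that rose was Itgae, with a mean of 6.22 against 5.82 in eWAT. All 5 measured markers of epididymal epithelium were dim on all arrays.

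**Figure D4:**
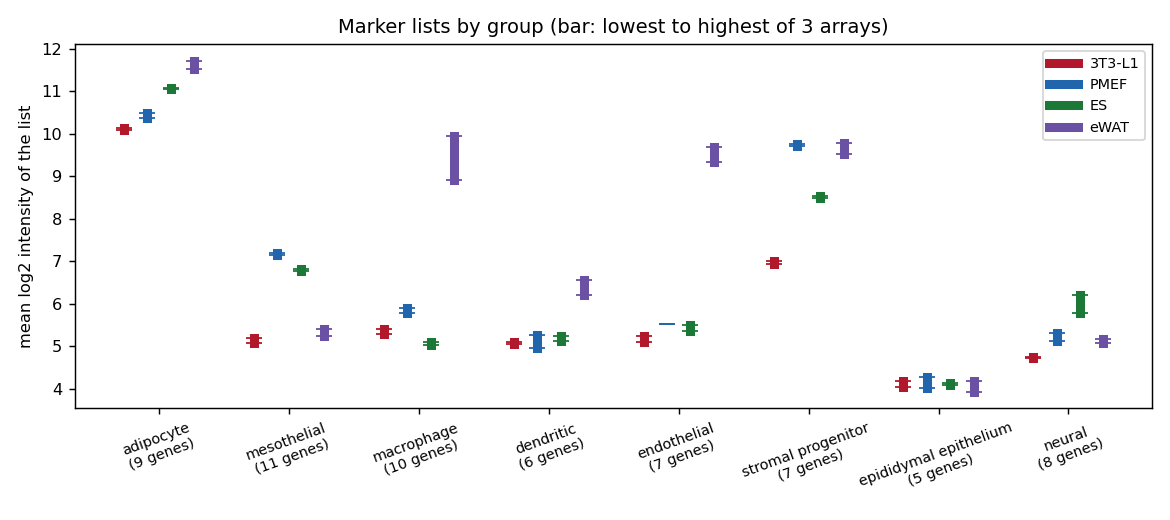
Mean log2 intensity of each marker list (y axis) by list (x axis) and group (colour); each bar runs from the lowest to the highest of 3 arrays. The means of the macrophage and endothelial lists were high in eWAT only (8.91 to 9.93 and 9.33 to 9.68), though Cd68 alone was higher in 3T3-L1 adipocytes. The mesothelial list was higher in PMEF and ES adipocytes (6.77 to 7.20) than in 3T3-L1 adipocytes and eWAT (5.06 to 5.40).

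The genes with the profiles most like that of Dhrs9 were found by the root mean square (RMS) log2 difference over the 12 arrays, each gene less its own mean, among 18612 named genes. They were Cbr3, a carbonyl reductase (RMS 0.25, Pearson r = 0.992), Mthfd2, a mitochondrial folate enzyme (0.33, r = 0.989), Aldh1l2, another mitochondrial folate enzyme (0.34, r = 0.984), Ddit3, a transcription factor of the stress response (0.35, r = 0.997), and Slc7a11, a cystine transporter (0.35, r = 0.989). The 12 arrays fall into 4 groups, so these r values mostly describe 4 group means, and arrays share their normalization. Cbr3 had group means of 9.88 in 3T3-L1, 8.69 in ES and 6.69 in PMEF adipocytes and 5.18 in eWAT. For Crabp1 the nearest were Ano3 (RMS 0.25), Fzd2 (0.31) and Cd109 (0.31). For Aldh1a1 they were Col3a1 (0.14), Pdgfrb (0.14) and Lbp (0.15), the former pair being on the stromal progenitor list. For Rarb they were Fgf11 (0.16), Ccdc85a (0.19) and Ndrg2 (0.19), and for Dhrs3 they were Slc43a2 (0.10), Adhfe1 (0.12) and Jcad (0.12). The remaining 4 genes had nearest genes at 0.06 to 0.15.

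**Figure D5:**
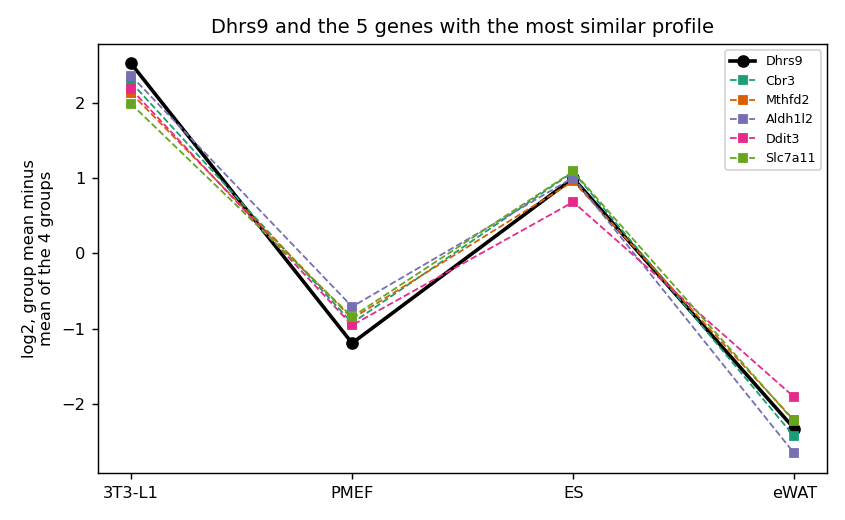
Group means less the mean of the 4 groups (y axis, log2) for Dhrs9 (black) and the 5 genes nearest to it by RMS difference, by group (x axis). Each line was highest in 3T3-L1 adipocytes, next in ES, then PMEF adipocytes and lowest in eWAT, as for Cbr3 (9.88, 8.69, 6.69 and 5.18).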

How the data were processed

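Total RNA from 12 samples was measured on Affymetrix arrays, per the labels' protocols after TRIzol extraction and biotin labelling from 300 ng. The deposited table holds log2 intensities of 35556 probe sets that the authors had already normalized between arrays by a method not given in the sources used here. Base 2 was inferred from the range of values (1.11 to 13.48). Values were used as deposited.

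Probe sets with exactly 1 gene symbol (21789) were kept, symbols were updated by Entrez ID (21698 matched), and where a gene had several probe sets (999 genes) that of the highest mean stood for it, leaving 19938 genes. The 12 arrays entered 1 model of 4 groups in limma 3.58.1 (R 4.3.3) (8 residual and 4.88 prior degrees of freedom). Genes with a Benjamini-Hochberg adjusted p under 0.05 over all genes were called, and rose or fell means called. The series' design text calls the samples biological replicates, and their number limits the precision. The fit was tested on simulated data.

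Members and lists were chosen with earlier results of these data known. All 9 members are named, and of each pathway list at most the 3 largest rises and 3 largest falls called in a comparison, plus Rbp4, Crabp2, Lrat, Cyp26a1, Cyp26b1, Rara, Rarg and Rxra whatever their result; another gene that the rule names is not reported here. Rbp7 against 3T3-L1 and Cyp26c1 were named after their values were seen. Alternatives were quantile normalization, centring on medians or on 6 reference genes, dropping the lowest 33.3% of genes, mean probe sets, fitting just the groups compared, a block for replicate numbers, trended and robust variance, array weights, and leaving out each array. Promoter windows are from RefSeq, GRCm38.p6.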

Additional observations from a re-analysis of the deposited data

How the results depend on the processing

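Of the 9 genes, no called difference changed direction under any of the 21 alternative settings, and the calls lost are given with the genes. Members called remained between 6 and 7 for PMEF against eWAT and between 8 and 9 for ES against eWAT. For ES against PMEF adipocytes they were 8, and 5 to 8 when 1 array was left out, 5 without PMEF array 2, where Stra6, Dhrs3 and Aldh1a2 lost their calls. Single genes were followed for the 9 genes and for selected pathway genes, many of them taken for the largest called changes of their list. Keeping a call was thus partly fixed by that choice. Of these tested values, 2089 kept direction and call, 49 lost the call, 1 gained it with its sign kept, and 15 changed sign. None of the 15 was called in the reported fit, but 1 of them, Rbp7 in 3T3-L1 against eWAT on the reference genes, became called. Pathway genes called stayed within 1.5 times the main count in all 6 comparisons, from 32 to 58. These totals leave out direction, which moved with the scaling. In 3T3-L1 against eWAT, 21 rose and 21 fell as deposited, 7 and 49 on the reference genes, and 35 and 17 on medians. Untested small differences turned: Stra6 in 3T3-L1 against eWAT from -0.07 to 0.15 (quantile) and 0.14 (medians), Stra6 against PMEF from -0.11 to 0.12 and 0.11, and Rdh10 against PMEF from -0.12 to 0.10 (medians). Tested differences that were not called turned as well. Rbp7 in 3T3-L1 against eWAT went from 0.00 to -0.55 on the reference genes (adjusted p = 0.0112) and -0.12 (quantile), and spanned -0.137 to 0.182 when 1 array was left out. In PMEF against eWAT, Stra6 went from 0.04 to -0.063 (reference genes) and -0.0076 (array weights), Cyp26a1 from 0.08 to -0.0201 (reference genes), and Cyp26b1 from -0.06 to 0.0471 (array weights). Leaving out 1 array, these values spanned -0.0672 to 0.1004 for Stra6, -0.1911 to 0.0722 for Cyp26b1 and -0.1718 to 0.0009 for Rdh10. On the reference genes, Aldh1a3 in ES against PMEF went from 0.05 to -0.0985 and Lrat in ES against eWAT from 0.20 to -0.0496. The cause was not tested beyond the array shifts that each scaling makes by construction.

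Same replicate numbers did not pair the arrays: correlations of deviations over genes were -0.137 to 0.108, with 1 of 18 above 0.1. With a replicate block, 6, 9 and 8 members were called in the comparisons above, as without it. Members called were not recomputed for comparisons with 3T3-L1, which are not tested for them. Signal near the dim level limits, among others, Aldh1a2 in 3T3-L1 and ES adipocytes, Rarb in 3T3-L1 and PMEF adipocytes, and Dhrs9 in eWAT.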
